A study of Mus musculus with 3 samples.

Results

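The 29 genes described here serve the synthesis of sterols and fatty acids, and they were chosen by symbol from the 32285 genes counted in sc-RNAseq of mouse colon organoids. The sterol branch held 16 enzymes (Acat2, Hmgcs1, Mvk, Pmvk, Mvd, Idi1, Fdps, Fdft1, Sqle, Lss, Cyp51, Msmo1, Nsdhl, Hsd17b7, Sc5d and Dhcr7), the fatty acid branch held 8 (Acly, Acaca, Fasn, Elovl6, Scd1, Scd2, Fads1 and Fads2), and 5 further genes control or follow the pathway (Srebf1, Srebf2, Insig1, Stard4 and Ch25h). Organoids are cultures of epithelial cells grown from mouse colon, here in a medium with all growth factors, and the live cells were sorted before droplet capture. There were 3 libraries, 1 of untreated organoids, 1 of organoids given interferon gamma (IFN-γ) for 24 h and 1 given IFN-γ for 48 h. No condition had more than 1 library, so a difference between conditions cannot be told apart from a difference between cultures or library preparations, and no test across samples was possible. The question was whether the cytokine went along with other levels of lipid synthesis transcripts, in the culture as a whole and within each kind of cell.

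Cells make cholesterol from acetyl-CoA through mevalonate, isoprenoid units, squalene and lanosterol, and they make fatty acids from cytosolic acetyl-CoA through malonyl-CoA, followed by elongation and desaturation. Both branches are transcribed under the SREBP factors, encoded by Srebf1 and Srebf2, which stay in the endoplasmic reticulum while sterols are plentiful and are cut and sent to the nucleus when sterols run low. INSIG1 holds them back, and its gene is itself an SREBP target, so the sterol enzymes and Insig1 are textbook readouts of the same sensor. The colon epithelium renews itself constantly and makes lipid for new membranes, and interferons are known to act on sterol synthesis in immune cells, where Ch25h encodes the enzyme that makes the suppressor 25-hydroxycholesterol.

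A cell was used if it had 5000 or more UMIs (unique molecular identifiers, each counting 1 captured transcript), if 400 or more genes were detected in it and if no more than 15% of its UMIs were mitochondrial. This gave 1058 cells of the untreated library, 917 of the 24 h library and 2934 of the 48 h library. The kept cells held between 47243500 and 71077817 UMIs per library, but the depth per cell differed, with medians of 33550, 68784 and 10772 UMIs in the untreated, 24 h and 48 h libraries. Between 1 and 4 kept barcodes were shared by any pair of libraries. The epithelial label held, since 6 epithelial markers summed to 8035 CPM in the untreated, 5960 CPM in the 24 h and 5336 CPM in the 48 h library (counts scaled to 1000000 UMIs per library), against 2.25, 11.5 and 18.1 CPM for 8 stromal and endothelial markers and 0.464 to 1.24 CPM for 8 immune markers, of which 3 to 4 and 2 to 4 were at 0 in each library. The epithelial sum was thus lower and the stromal sum higher at each later time, as the summed sterol enzymes were lower at each later time on this scale, and the part of these markers in the differences below was not tested. The treatment was visible in every gene of a 30-gene IFN-γ response list, all of which were past 2-fold higher at both times. Cxcl10, for example, encoding a T cell chemokine, stood at 2.55, 824 and 648 CPM. Irf1, a transcription factor gene, had 23.5, 331 and 310 CPM, and Gbp2, a guanylate-binding protein gene, had 0.0402, 571 and 639 CPM.

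CPM depends on what else fills a library, and that mattered here. Over the 14230 genes with at least 50 UMIs, the median log2 ratio of CPM was -0.38 at 24 h, and over 14206 genes it was -0.14 at 48 h. Scaling by TMM, which centres the bulk of genes, shifted all 24 h ratios upward by 0.45 and all 48 h ratios by 0.19 (log2), and with DESeq2 size factors the shifts were 0.46 and 0.18. Ribosomal protein genes took 18.0% of the untreated UMIs, 23.4% at 24 h and 20.3% at 48 h, and the nuclear transcripts Malat1, Neat1 and Kcnq1ot1 together took the largest share in the untreated library, against 0.331% at 24 h and 0.546% at 48 h. Their part in the differences below was not tested. Ratios are therefore given on the CPM scale, and the TMM value stands beside branch and member ratios whose direction it turns. All intervals are 95% and exact, and they cover counting error only. Gene levels are compared between libraries and not between genes, because UMIs are counted at the 3′ end and capture differs from gene to gene.

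The promoter windows found for the branches differed in the sequence motifs they held, with few windows for the fatty acid branch. RefSeq windows of 250 bases before each annotated start (GRCm38.p6) were searched, a member with several starts counting once if any window held the letters. Of the 29 members 22 were matched, 13 sterol, 5 fatty acid and 4 control genes, and no window was available for Sqle, Fdps, Fdft1, Stard4, Scd1, Scd2 and Fads1. The Acaca window, at bases 84195188 to 84195437 of chromosome 11, lay inside the gene as annotated in GENCODE (84129672 to 84401651, plus strand). It therefore does not cover the start of the longest annotated extent of Acaca. The letters CCAAT, the core of the box bound by NF-Y, a common partner of SREBP, occurred on either strand in 12 of the 13 sterol members, Acat2 being without it, in 1 of the 5 fatty acid members (Fasn) and in 3 of the 4 control genes (Srebf1, Srebf2 and Insig1). Among all 32851 windows 33.8% held it, and among the 7763 genes with at least 1000 UMIs over the 3 libraries 41.1% did. In Cyp51, Idi1 and Msmo1 the CCAAT matches lay after the GENCODE start. Those of Dhcr7 lay at bases 143829964 to 143830213 of chromosome 7, inside the gene (143823145 to 143848410, plus strand). The sterol count thus includes matches that are not upstream of the longest annotated extent. The letters TCACNCCAC of a classical sterol regulatory element occurred only in Hmgcs1 among the members, against 1.05% of all windows, and the SREBP E-box TCACNTGA occurred in none, against 3.45%. Letters of the IFN-γ activated site, TTCNNNGAA, were in 7.02% of all windows and those of the core of the interferon-stimulated response element in 2.98%, and neither was in any member's window. The GC box GGGCGG was in 12 of 13 sterol members, 2 of 5 fatty acid members and 3 of 4 control genes, against 32.7% of all windows and 66.2% of the expressed genes. In Idi1, Msmo1 and Fads2 the GC box matches also lay after the GENCODE start. Only 7 bases of the Fads2 window lay before that start, so its lack of CCAAT also comes mostly from inside the gene. Each motif was searched on both strands and counted on its own, also where matches overlapped, and a match is a string of letters, not a measured site.

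The 4 windows below are shown because their genes carry the contrasts of the following sections: on the CPM scale over all cells Hmgcs1 and Insig1 were lower and Fasn was higher at 48 h, and Mvk held the NF-Y letters most often. Capitals mark the sterol regulatory element in Hmgcs1 and the NF-Y letters (CCAAT, or ATTGG on the other strand) in all 4. They are RefSeq sequences of GRCm38.p6, written 5′ to 3′ on the strand of the gene, and end before the first transcribed base, at chr13:119690101-119690350 (plus strand) for Hmgcs1, chr5:114444019-114444268 (plus) for Mvk, chr5:28071162-28071362 (plus) for Insig1 and chr11:120824548-120824797 (minus) for Fasn.
Hmgcs1: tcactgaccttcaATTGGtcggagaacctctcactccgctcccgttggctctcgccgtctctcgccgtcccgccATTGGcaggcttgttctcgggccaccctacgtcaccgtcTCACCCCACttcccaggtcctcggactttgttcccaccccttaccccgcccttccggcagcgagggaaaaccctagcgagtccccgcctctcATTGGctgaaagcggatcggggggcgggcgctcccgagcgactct
Mvk: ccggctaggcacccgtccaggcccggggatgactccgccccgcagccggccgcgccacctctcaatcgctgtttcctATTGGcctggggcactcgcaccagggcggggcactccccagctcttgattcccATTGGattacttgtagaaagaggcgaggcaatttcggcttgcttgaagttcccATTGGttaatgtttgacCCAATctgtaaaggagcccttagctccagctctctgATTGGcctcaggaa
Insig1: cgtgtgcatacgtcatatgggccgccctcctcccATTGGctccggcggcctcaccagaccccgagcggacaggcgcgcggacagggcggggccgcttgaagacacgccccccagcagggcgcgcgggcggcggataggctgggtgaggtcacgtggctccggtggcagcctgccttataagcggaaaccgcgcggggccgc
Fasn: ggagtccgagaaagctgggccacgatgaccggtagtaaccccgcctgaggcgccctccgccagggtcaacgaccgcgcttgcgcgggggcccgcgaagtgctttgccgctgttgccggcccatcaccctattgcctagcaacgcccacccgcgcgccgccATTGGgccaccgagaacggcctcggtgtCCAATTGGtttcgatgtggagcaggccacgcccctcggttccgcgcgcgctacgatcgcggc
The element in Hmgcs1 runs from 137 to 129 bases before the start, and its 3 NF-Y matches begin 237, 176 and 45 bases before it. Mvk holds 5 NF-Y matches within 173 bases of its start. Fasn holds 3 within 90 bases, of which 2 overlap in a palindrome, and Insig1 holds 1. Distances count from the RefSeq start. The GENCODE start of Insig1 lies further upstream, so only the first 201 bases of its searched window are printed.

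Summed over its 16 enzymes, the sterol branch was lower at each later time on the CPM scale, while TMM put the 24 h library above untreated. It stood at 2371 CPM in untreated organoids, 2147 CPM at 24 h and 1848 CPM at 48 h. The log2 ratio was -0.14 (-0.15 to -0.13) at 24 h and -0.36 (-0.37 to -0.35) at 48 h. With TMM scaling the 24 h value turned to 0.30, while the 48 h value kept its direction at -0.17. Between the treated libraries, 48 h was lower than 24 h by either scale, with -0.22 on CPM and -0.48 with TMM.

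The fatty acid branch had another course. Its 8 enzymes summed to 1305, 1062 and 1324 CPM, so the 24 h library was the lowest and the 48 h library was level with untreated. The log2 ratio was -0.30 (-0.31 to -0.28) at 24 h, which turned to 0.15 with TMM, and 0.02 (0.00 to 0.04) at 48 h. The desaturase gene Scd2 alone carried 685 of the untreated 1305 CPM, and the other 7 enzymes summed to 621, 540 and 707 CPM. In cells of 10000 to 30000 UMIs alone, the fatty acid ratio was 0.18 at 24 h and -0.49 at 48 h, opposite to the values over all cells at both times. This range can hold other kinds of cells in each library, since depth differed between the clusters described below. Cluster 0 had median depths of 15349, 14901 and 7282 UMIs, against 62993, 76892 and 20840 in cluster 2. The part of this mix in ratios from that range was not tested.

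The 4 measured control genes were the lowest relative to untreated, at 406, 276 and 283 CPM, with log2 ratios of -0.55 (-0.58 to -0.53) and -0.52 (-0.55 to -0.49). Their TMM values, -0.11 and -0.33, kept the direction.

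Gene by gene, no member was past 2-fold in either direction at 24 h, where 22.8% of all genes tested were, although with TMM Pmvk was past it at 1.04. The share of all genes past 2-fold was not counted with TMM. At 48 h, 2 of the 28 members tested were past 2-fold lower (Hmgcs1 and Idi1) and 0 were past 2-fold higher, against 12.1% lower and 4.18% higher among all genes. Neither of these 2 stayed past 2-fold with TMM (-0.84 and -0.98), with DESeq2 factors (-0.84 and -0.99) or in cells of 10000 to 30000 UMIs (-0.87 and -0.21). Over all genes tested, 16.2% were past 2-fold in either direction at 48 h, and 19.9% were lower and 2.97% higher at 24 h. At a limit of 1.5-fold, 1 member was higher (Pmvk) and 3 were lower (Hmgcs1, Srebf1 and Insig1) at 24 h, against 5.85% and 37.2% of all genes, and 0 were higher and 7 lower (Hmgcs1, Idi1, Lss, Cyp51, Srebf1, Insig1 and Stard4) at 48 h, against 8.29% and 22.7%. Among genes with at least 1000 UMIs over the compared libraries, which fits the members' abundance better, the shares past 2-fold lower were 8.75% at 24 h and 4.93% at 48 h. The 2 of 28 members at 48 h lay between the share of all genes and that of the more abundant ones, and 2 genes are too few to tell the members from either. The median log2 ratio of the sterol members was -0.17 at 24 h and -0.30 at 48 h, that of the fatty acid members -0.18 and 0.19, and that of the 4 measured control genes -0.58 and -0.74, beside all-gene medians of -0.38 and -0.14. With TMM the sterol medians were 0.28 and -0.11, the fatty acid medians 0.26 and 0.38 and the control medians -0.13 and -0.56. Above untreated at 48 h were 3 of 16 sterol members, 5 of 8 fatty acid members and 0 of 4 control genes, beside 5465 of 14206 genes in all. With TMM these counts were 6, 6 and 1, beside 7611 genes in all.

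**Figure D1:**
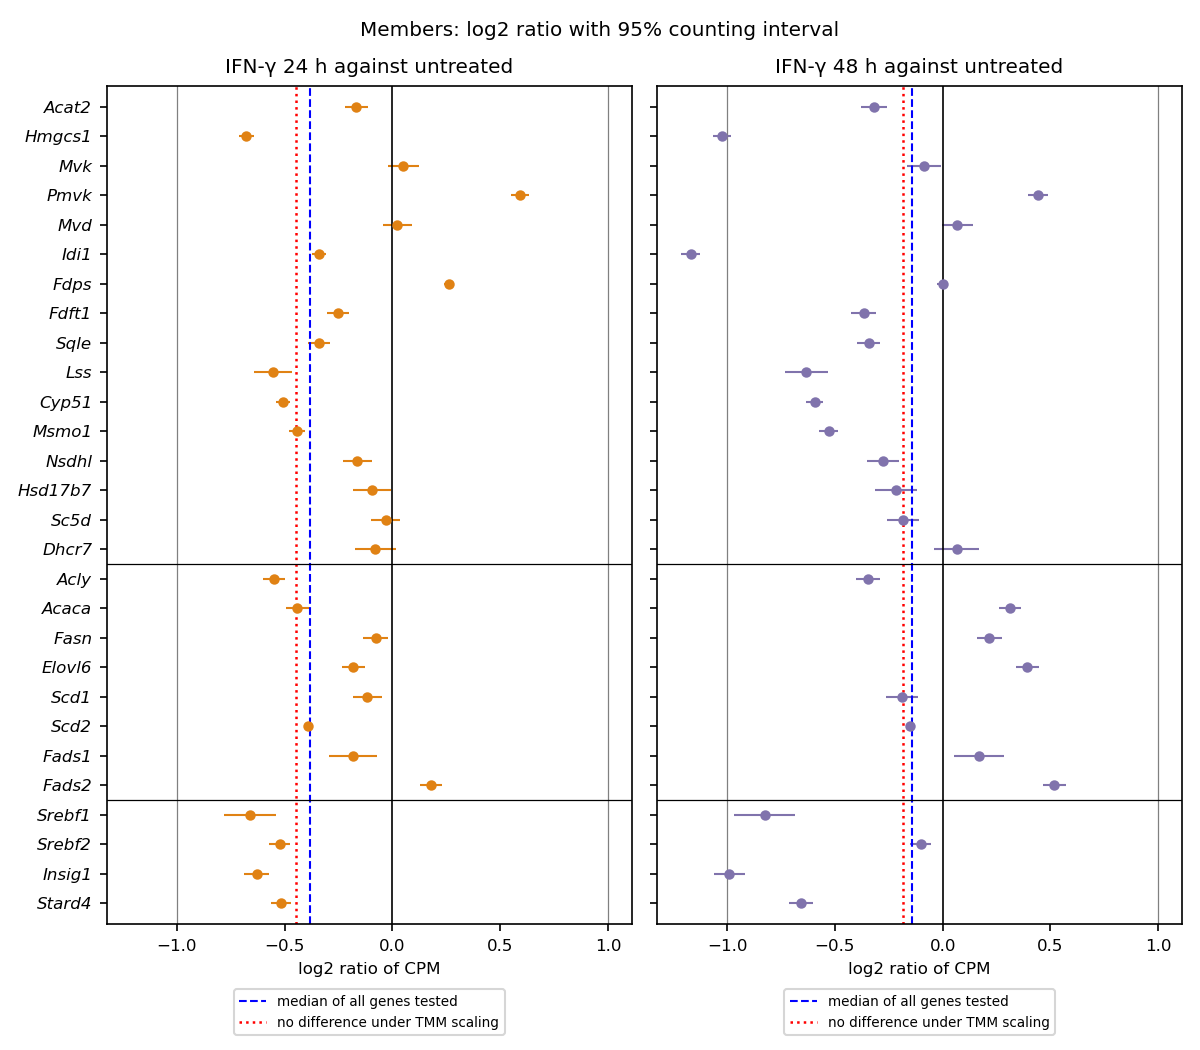
Log2 ratio of CPM to untreated (x axis) for each of the 28 measured members (y axis; sterol, fatty acid and control genes separated by lines), at 24 h on the left and 48 h on the right, with 95% counting intervals as bars. The blue dashed line is the median of all genes tested (-0.38 and -0.14), the red dotted line marks where a ratio would be 0 under TMM scaling, and the grey lines mark 2-fold; Hmgcs1 and Idi1 lie beyond 2-fold lower at 48 h, and Acaca, Fasn, Elovl6 and Fads1 lie left of 0 at 24 h and right of it at 48 h. With TMM, Hmgcs1 and Idi1 are at -0.84 and -0.98, within 2-fold.

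At 48 h Hmgcs1 and Idi1 differed most from untreated among the sterol enzymes on the CPM scale, whereas at 24 h Pmvk and Lss differed more than Idi1 did. Hmgcs1 (chromosome 13, bases 119690379 to 119708260, plus strand), which encodes the cytosolic synthase that makes HMG-CoA, stood at 305, 191 and 150 CPM in untreated, 24 h and 48 h cells. Its level was lower at each later time, by a log2 ratio of -0.68 (-0.71 to -0.64) at 24 h and -1.02 (-1.06 to -0.98) at 48 h. Idi1 (chromosome 13, bases 8885501 to 8892451, plus strand) encodes the isomerase that turns isopentenyl into dimethylallyl diphosphate. It stood at 266, 210 and 118 CPM. The lower level came mostly in the later library, with -0.34 (-0.38 to -0.31) at 24 h, 0.11 with TMM, and -1.17 (-1.21 to -1.12) at 48 h. In cells of 10000 to 30000 UMIs the 48 h ratio of Idi1 was only -0.21, whereas that of Hmgcs1 was -0.87. Each cell was also thinned to 5000 UMIs, which evens out depth but not what else fills a library or its mix of cells. The share of cells with a Hmgcs1 UMI was then 68.0%, 58.0% and 47.1%, and for Idi1 it was 58.1%, 52.8% and 38.6%. Without thinning these were 93.5%, 94.5% and 73.4% for Hmgcs1 and 87.3%, 90.5% and 64.2% for Idi1.

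Of the other enzymes of the mevalonate part, only Acat2 was also lower at each later time on the CPM scale, by smaller amounts. Acat2, encoding the cytosolic acetoacetyl-CoA thiolase, stood at 98.6, 87.8 and 79.1 CPM. Its log2 ratio was -0.17 (-0.22 to -0.11) at 24 h, 0.28 with TMM, and -0.32 (-0.38 to -0.26) at 48 h. Mvk and Mvd, encoding mevalonate kinase and the decarboxylase that ends the sequence, stood at 55.2, 57.2 and 52.0 CPM and at 63.7, 64.7 and 66.8 CPM. These levels were close together on the CPM scale, but with TMM the 24 h ratios were 0.50 and 0.47, and in cells of 10000 to 30000 UMIs the 48 h ratios were 0.60 and 0.82. TMM also turned the 48 h ratio of Mvk from -0.09 to 0.10. Pmvk, which encodes the kinase between them, was the sterol gene with the highest ratio. It stood at 139, 209 and 189 CPM (chromosome 3, bases 89454541 to 89469013, plus strand). Its log2 ratio was 0.59 (0.55 to 0.63) at 24 h and 0.44 (0.40 to 0.49) at 48 h, and it was higher under all 12 alternative ways of counting and scaling at both times. Fdps, the farnesyl diphosphate synthase gene, stood at 469, 563 and 469 CPM, with a log2 ratio of 0.26 (0.24 to 0.29) at 24 h. At 48 h its interval was -0.03 to 0.03, but the ratio was 0.19 with TMM and 0.71 in cells of 10000 to 30000 UMIs. An exon of Gm43738 overlaps Fdps on the same strand in GENCODE, so its reads may be shared. Background barcodes below 2000 UMIs held Fdps at 754, 713 and 654 CPM, above the level in kept cells in each library.

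The enzymes from squalene to lanosterol and onward were lower by similar amounts at both times on the CPM scale, whereas with TMM the 24 h ratios lay nearer to 0 than the 48 h ratios for Lss, Cyp51 and Msmo1. Fdft1, the squalene synthase gene, stood at 111, 93.1 and 86.0 CPM, and Sqle, the squalene epoxidase gene, at 125, 98.8 and 98.6 CPM. Both were highest in untreated cells, and both turned to slightly higher at 24 h with TMM (0.20 and 0.11). Lss, encoding lanosterol synthase, stood at 43.2, 29.5 and 27.9 CPM, with log2 ratios of -0.55 (-0.64 to -0.47) and -0.63 (-0.73 to -0.53). Cyp51, encoding lanosterol demethylase, stood at 276, 194 and 183 CPM, with -0.51 (-0.54 to -0.47) and -0.59 (-0.63 to -0.56). With TMM the ratios of Lss were -0.11 and -0.45 and those of Cyp51 -0.06 and -0.41. Msmo1, a methylsterol monooxygenase gene, had 220, 162 and 153 CPM, and its -0.44 at 24 h became 0.00 with TMM while -0.53 at 48 h became -0.34.

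At the last steps the CPM levels lay close together at 24 h. Nsdhl and Hsd17b7, which encode enzymes of C4 demethylation, stood at 66.4, 59.3 and 54.8 CPM and at 37.7, 35.3 and 32.5 CPM. Sc5d, the sterol desaturase gene, had 63.5, 62.1 and 55.8 CPM. Dhcr7, whose enzyme completes cholesterol, had 31.0, 29.3 and 32.4 CPM, and its intervals included 0 at both times (-0.18 to 0.02 and -0.04 to 0.17). Across the branch, then, 4 of 16 sterol intervals included 0 at 24 h and 3 of 16 at 48 h, and with TMM the 24 h ratios of all of these last genes were above 0.

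**Figure D2:**
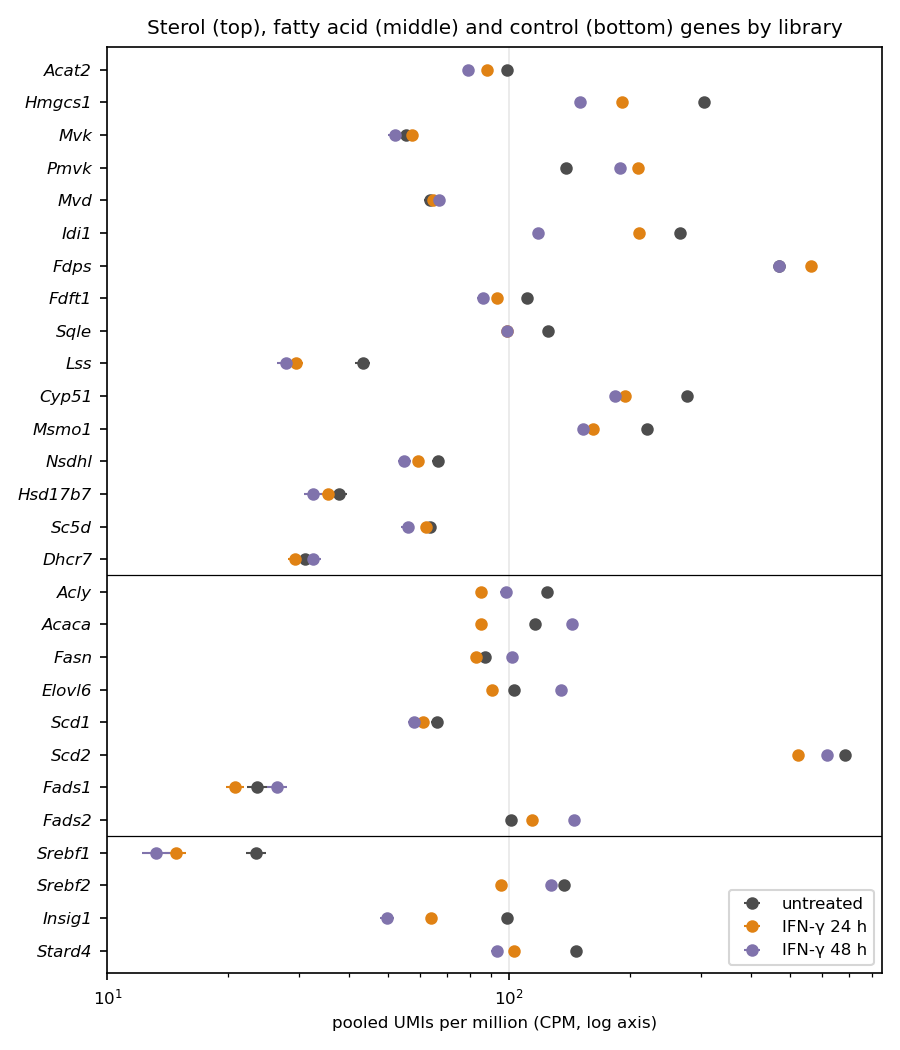
Pooled level (x axis, CPM on a log axis, bars are 95% counting intervals) of the 28 members with a UMI (y axis) in untreated (grey), 24 h (orange) and 48 h (purple) cells. Hmgcs1 and Idi1 step down from 305 to 150 and from 266 to 118 CPM, Pmvk is lowest in untreated cells, and Acaca, Elovl6 and Fads2 are highest at 48 h.

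Among fatty acid enzymes, Acly was the only member lower at both times under all 12 alternatives. It encodes ATP citrate lyase, which makes cytosolic acetyl-CoA for both branches, and it stood at 124, 85.0 and 97.9 CPM. The untreated library was the highest, with log2 ratios of -0.55 (-0.60 to -0.50) and -0.35 (-0.40 to -0.29).

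Acaca, Fasn and Elovl6, which encode acetyl-CoA carboxylase 1, fatty acid synthase and the elongase that takes palmitate to stearate, were lowest at 24 h and highest at 48 h. Acaca stood at 116, 85.3 and 144 CPM, with log2 ratios of -0.44 (-0.49 to -0.39) and 0.31 (0.26 to 0.36). Elovl6 stood at 103, 90.6 and 135 CPM, with -0.18 (-0.23 to -0.13) and 0.39 (0.34 to 0.45). The order of the 3 libraries was the same for Fasn, at 87.2, 82.6 and 101 CPM, with -0.08 (-0.13 to -0.02) and 0.22 (0.16 to 0.28). TMM scaling put the 24 h ratios of all 3 above 0, at 0.01, 0.27 and 0.37 for Acaca, Elovl6 and Fasn. Restricting the cells to 10000 to 30000 UMIs turned their 48 h ratios to -0.70, -0.24 and -0.14, so the direction at 48 h held over all cells but not in cells of that depth. As stated above, that range can hold the clusters in different parts in each library, and depth and cluster mix were not separated.

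The desaturases were split. Fads2, encoding the delta-6 desaturase of polyunsaturated fatty acid synthesis (chromosome 19, bases 10062765 to 10101746, minus strand), stood at 101, 114 and 145 CPM and was higher at each later time. Its log2 ratio was 0.18 (0.13 to 0.23) at 24 h and 0.52 (0.47 to 0.57) at 48 h, above 0 under all 12 alternatives. Its neighbour Fads1, the delta-5 desaturase gene, had 23.6, 20.8 and 26.5 CPM. Scd1 and Scd2, encoding stearoyl-CoA desaturases that make monounsaturated fatty acids, stood at 66.2, 61.1 and 58.1 CPM and at 685, 522 and 617 CPM. Both were highest in untreated cells on the CPM scale, but with TMM the Scd2 ratios were 0.06 and 0.04 and the 24 h ratio of Scd1 was 0.33. In cells of 10000 to 30000 UMIs the 24 h ratio of Scd2 was 0.23. At 48 h the ratio of Scd2 ran from -0.67 to 0.04 over the 12 alternatives.

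The control genes included the clearest parallel to Hmgcs1. Insig1 (chromosome 5, bases 28071363 to 28078662, plus strand) stood at 98.7, 63.8 and 49.7 CPM, lower at each later time. Its log2 ratio was -0.63 (-0.69 to -0.57) at 24 h and -0.99 (-1.06 to -0.92) at 48 h. Stard4, encoding a cytosolic sterol carrier that is an SREBP target, stood at 147, 102 and 93.0 CPM, with -0.52 (-0.56 to -0.47) and -0.66 (-0.71 to -0.60). Both kept their direction under all 12 alternatives.

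The SREBP genes themselves differed from each other at 48 h. Srebf1 (chromosome 11, bases 60199089 to 60222581, minus strand) stood at 23.4, 14.8 and 13.2 CPM, with log2 ratios of -0.66 (-0.78 to -0.54) and -0.82 (-0.97 to -0.68). Both treated libraries were below untreated. Srebf2 stood at 137, 95.2 and 127 CPM, so it was lowest at 24 h (-0.52, -0.57 to -0.47) and close to untreated at 48 h (-0.10, -0.15 to -0.05, and 0.08 with TMM). In cells of 10000 to 30000 UMIs the 48 h ratios were lower, at -1.79 for Srebf1 and -0.88 for Srebf2. An exon of the microRNA gene Mir6922 overlaps Srebf1, and one of Mir5114 overlaps Scd2, on the same strand. Ch25h, the cholesterol 25-hydroxylase gene, had 0 UMIs in the kept cells of every library. A count of 0 allows a share of cells with a UMI of up to 0.284% of 1058 untreated cells, 0.327% of 917 cells at 24 h and 0.102% of 2934 cells at 48 h.

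Of 60 other genes of these pathways, 9 with at least 50 UMIs were past 2-fold at 1 time or more, besides Nr1h3, which is taken with the sterol receptors below. Of the other sterol genes tested, 0 of 9 were past 2-fold at either time. Scap, encoding the escort of SREBP, had 21.9, 17.7 and 26.9 CPM, and Insig2, a relative of Insig1, 31.7, 26.0 and 22.3 CPM. The oxysterol receptor gene Nr1h3 and its target Abca1, a cholesterol exporter, were barely detected, with 43, 39 and 16 UMIs and 12, 10 and 1 UMIs. Nr1h3 was at -1.35 (-2.28 to -0.49) at 48 h.

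Acss2, encoding acetyl-CoA synthetase, stood at 56.2, 24.0 and 29.3 CPM, with log2 ratios of -1.22 and -0.94. Acsl3 and Acsl1, which encode long-chain acyl-CoA synthetases, stood at 128, 64.2 and 61.5 CPM and at 22.5, 11.0 and 16.7 CPM. Among the other fatty acid genes 3 of 21 were past 2-fold lower at 24 h (Acss2, Acsl1 and the stearoyl-CoA desaturase gene Scd3, with 34, 18 and 10 UMIs) and 1 of 20 at 48 h (Acsl3), near the background of 19.9% and 12.1%. In the control and transport list, Prkaa2, a catalytic subunit gene of AMP-activated kinase, had 51.1, 19.9 and 23.7 CPM. Pparg, a lipid-sensing nuclear receptor gene, had 157, 73.1 and 100 CPM, and Ppara, its relative for fatty acid oxidation, had 3.07, 0.872 and 1.91 CPM. All 3 were lowest at 24 h. The sterol exporter gene Abcg1 had 19, 59 and 67 UMIs, with log2 ratios of 1.12 (0.35 to 1.95) and 1.89 (1.14 to 2.71), and Soat2, encoding a sterol esterifying enzyme, had 22, 42 and 45 UMIs, with 1.11 (0.34 to 1.91) at 48 h. Of the 24 genes tested in this list, 3 were lower and 1 higher past 2-fold at 24 h, and 2 were lower and 2 higher at 48 h, beside backgrounds of 2.97% higher at 24 h and 4.18% at 48 h.

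The cells were then separated into clusters, with the members and the other pathway genes left out of the genes used for clustering. Of 8 clusters, clusters 1 and 2 were proliferating-like (led by Nusap1, Ube2c and Plk1, and by Hist1h1a, Ung and Mcm3), cluster 4 goblet-like (Spink4, Muc2 and Tff3), cluster 5 colonocyte-like (Krt20, Slc26a3 and Car1) and cluster 6 enteroendocrine-like (Chgb, Chga and Tph1). Clusters 0, 3 and 7 stayed unnamed. Cluster 0 (345, 179 and 1358 cells) raised 9 of 13 stem markers, but none was among its leading genes, which were Lrrc4, AY036118 and Sorbs2os. It also differed in quality, with median depths of 15349, 14901 and 7282 UMIs, median mitochondrial shares of 10.4%, 7.97% and 8.90% and ribosomal protein shares of 8.28%, 13.0% and 15.9%, the lowest of clusters 0 to 5 in each library. Malat1, Neat1 and Kcnq1ot1 took 1.63%, 1.06% and 0.877% of its UMIs, the highest share of clusters 0 to 5 in both treated libraries. The part of these quality measures in the values of cluster 0 was not tested. At a resolution of 1, a cluster of 186, 93 and 494 cells led by Lrrc4, Sorbs2os, Lgr5 and Smoc2 was named stem-like. Its cells were not matched to those of cluster 0.

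The sterol branch was lower at 48 h in each of the 6 clusters with at least 50 cells in every library (clusters 0 to 5), and with TMM in all of these but cluster 0, where the ratio turned to 0.03. All TMM values within clusters add the shift of the whole library, and no factor was computed for a cluster on its own. In proliferating-like cells (clusters 1 and 2 together) the ratio of the summed branch was -0.18 (-0.20 to -0.17) at 24 h, 0.27 with TMM, and -0.35 (-0.37 to -0.33) at 48 h. Colonocyte-like cells had 2564, 2455 and 2161 CPM, with -0.06 (-0.09 to -0.03) at 24 h, 0.38 with TMM, and -0.25 (-0.28 to -0.21) at 48 h. Goblet-like cells had the highest untreated level and the ratios furthest below 0 on the CPM scale among clusters 0 to 5, at 2734, 2133 and 1872 CPM, with -0.36 (-0.39 to -0.32) at 24 h, 0.09 with TMM, and -0.55 (-0.59 to -0.51) at 48 h. On the CPM scale cluster 0 had the smallest difference of the 6, at 1822, 1891 and 1637 CPM. It was slightly above untreated at 24 h and at -0.15 (-0.19 to -0.12) at 48 h. With TMM its 24 h ratio was 0.50, the highest of the 6. Enteroendocrine-like cells stood apart, at 1473, 2512 and 1970 CPM in 30, 13 and 21 cells. Their ribosomal protein share was 8.05%, 17.1% and 14.1%, lowest in the same library as the sterol branch, and its part in the difference was not tested.

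Within clusters the fatty acid branch was highest in cluster 0 in each library, at 1810, 2036 and 1678 CPM, while clusters 1 to 5 ranged from 1031 to 1532 CPM in untreated organoids. In clusters 1 to 5 the 24 h library was the lowest of the 3, with log2 ratios from -0.42 (goblet-like) to -0.14 (cluster 2), which with TMM turned to values from 0.02 to 0.31. Cluster 0 went the other way, with 0.17 at 24 h and -0.11 at 48 h (0.08 with TMM). Proliferating-like cells had ratios of -0.21 (-0.23 to -0.19; 0.24 with TMM) and 0.02 (an interval touching 0), and colonocyte-like cells -0.39 (-0.43 to -0.34; 0.06 with TMM) and -0.01 (-0.06 to 0.04; 0.18 with TMM). At 48 h the ratios of clusters 1 to 5 lay between -0.13 (goblet-like) and 0.09 (cluster 2), or between 0.06 and 0.27 with TMM.

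**Figure D3:**
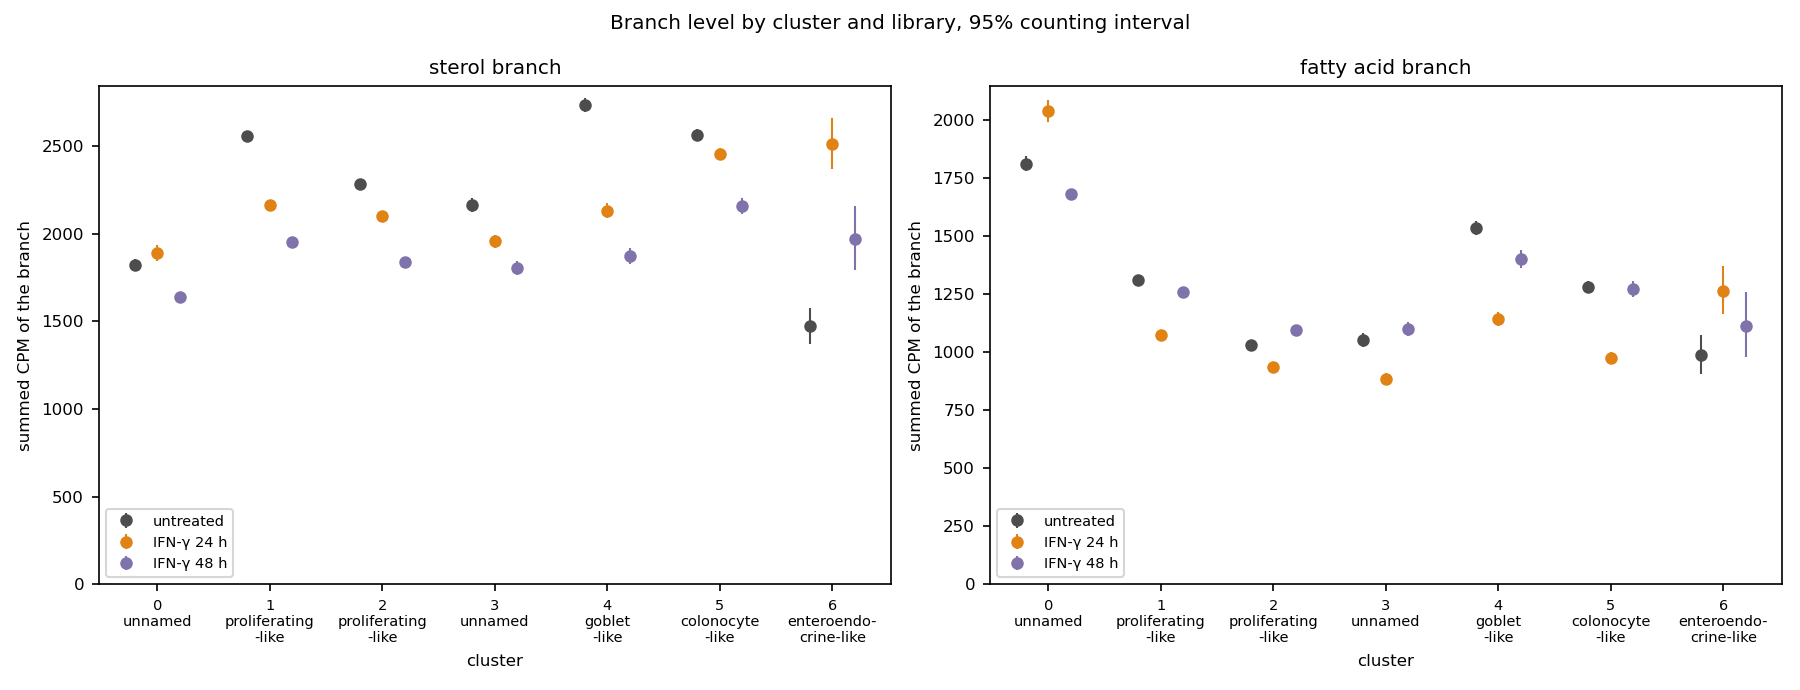
Summed CPM (y axis, from 0) of the 16 sterol enzymes (left) and the 8 fatty acid enzymes (right) in clusters 0 to 6 (x axis) of untreated (grey), 24 h (orange) and 48 h (purple) cells, with 95% counting intervals. The sterol branch is lowest at 48 h in clusters 0 to 5, the fatty acid branch is lowest at 24 h in clusters 1 to 5, and cluster 0 has the highest fatty acid level in each library (1810, 2036 and 1678 CPM).

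Single members repeated these courses across clusters 0 to 5 to different degrees. Hmgcs1 was below untreated in all 6 clusters at 48 h, from -0.81 to -1.36, and the largest difference was in goblet-like cells, which had 483, 221 and 188 CPM. Idi1 ranged from -0.79 to -1.29 at 48 h. Insig1 ranged from -0.70 to -1.57, and its lowest ratio was in colonocyte-like cells, which had 136, 67.9 and 45.8 CPM. On the CPM scale all 4 measured control genes were below 0 in all 6 clusters at both times, as were 5 of 16 sterol members at 24 h and 7 of 16 at 48 h, and 1 and 2 of 8 fatty acid members. With TMM, at 24 h this held for Srebf1 and for 0 of 16 sterol members, and at 48 h for 3 control genes (Insig1, Srebf1 and Stard4), 6 sterol members (Cyp51, Fdft1, Hmgcs1, Idi1, Lss and Sqle) and 0 of 8 fatty acid members. How many of all genes lay below 0 in every cluster was not counted. Over all cells on the CPM scale, 10452 of 14230 genes tested were below 0 at 24 h and 8741 of 14206 at 48 h. These pooled counts use a looser limit than a ratio below 0 in all 6 clusters. They therefore do not show whether the members differ from other genes. Pmvk and Fads2 were above 0 in all 6 clusters at both times on either scale. Fads2 differed most in colonocyte-like cells, with 62.1, 93.2 and 142 CPM and a ratio of 1.19 at 48 h. In the same cells Pmvk had 132, 269 and 216 CPM.

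Acaca followed the cluster more than the time. It was highest in cluster 0, at 241, 246 and 214 CPM, and lowest in colonocyte-like cells, at 72.6, 43.9 and 86.0 CPM. Elovl6 had the same highest and lowest clusters in all 3 libraries, and so did Srebf1, while Scd2 and Srebf2 were highest in cluster 0 throughout. In contrast Mvk, Pmvk, Mvd, Idi1, Fdps and Nsdhl were lowest in cluster 0 in all 3 libraries. The quality differences of cluster 0 given above were not separated from these levels. Hmgcs1, Acly and Insig1 were highest in goblet-like cells throughout, and Mvd and Nsdhl in colonocyte-like cells. At 48 h the share of cells in cluster 0 was 46.3%, against 32.6% in untreated organoids and 19.5% at 24 h, so a level over all cells mixes these clusters in different parts. Weighting each library's clusters by their untreated shares of cells gave the fatty acid branch ratios of -0.07 at 24 h and -0.05 at 48 h. The sterol branch had -0.09 and -0.28. Pooled CPM instead weights clusters by their UMIs, of which cluster 0 held 6386713, 3579694 and 11644418 in the untreated, 24 h and 48 h libraries. These ratios therefore differ from the pooled ones in the kind of weight as well as in the mix of clusters. With the untreated shares of cells as weights, Acaca was at 0.06 and Elovl6 at 0.27 at 48 h, and Hmgcs1 and Idi1 were at -0.90 and -1.04.

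**Figure D4:**
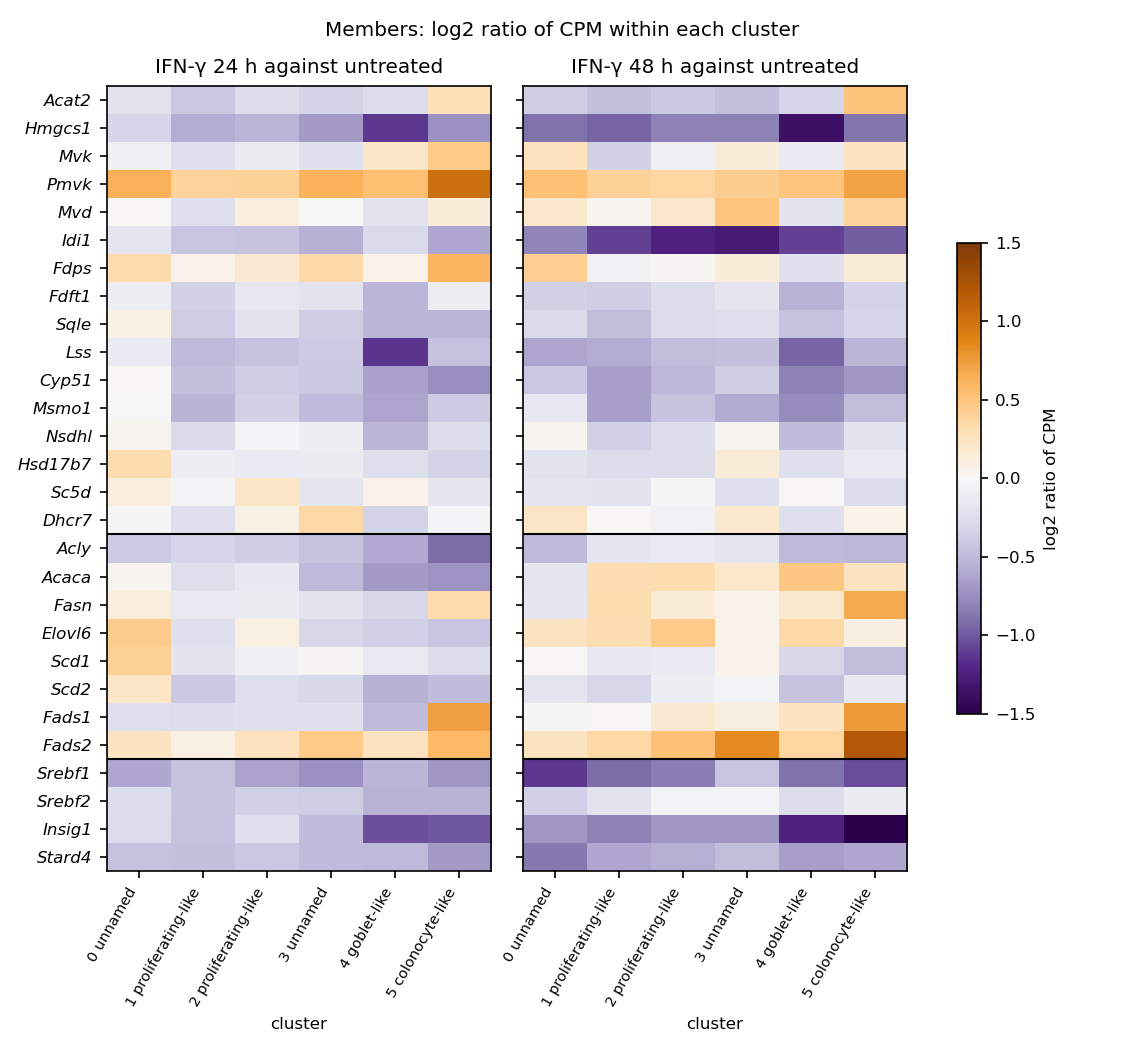
Log2 ratio of CPM to untreated for each measured member (rows; sterol, fatty acid and control genes separated by lines) within clusters 0 to 5 (columns), at 24 h (left) and 48 h (right); purple is lower and orange higher. Hmgcs1, Idi1, Insig1, Srebf1 and Stard4 are lower in all 6 clusters at both times on this scale (at 48 h also with TMM), and Pmvk and Fads2 are higher in all 6.

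In single cells thinned to 5000 UMIs the median sum over the sterol members was 10, 10 and 8 UMIs in the untreated, 24 h and 48 h libraries, and over the fatty acid members it was 7, 5 and 7 UMIs. Over cells, the Pearson correlation of the sums was 0.27, 0.11 and 0.06, a description of sparse counts at equal depth over a mix of clusters. Within clusters 0 to 5 it ran from 0.12 to 0.44 in untreated cells, from -0.01 to 0.33 at 24 h and from 0.02 to 0.24 at 48 h. Background barcodes below 2000 UMIs had the sterol branch at 2454, 2029 and 1761 CPM, close to the kept cells, whereas they had the fatty acid branch at 947, 751 and 699 CPM, below them. The shallowest barcodes of the matrices held 1390, 851 and 1624 UMIs in the untreated, 24 h and 48 h libraries. This background set therefore has no near-empty droplets and need not show free RNA alone. The order of the 3 libraries was the same in background and kept cells for the sterol branch. At 48 h the background log2 ratios of Hmgcs1, Idi1 and Insig1 were -1.10, -1.11 and -1.14, against -1.02, -1.17 and -0.99 in kept cells. Those of Pmvk and Fads2 were 0.44 and -0.29, against 0.44 and 0.52. Free RNA in the droplets was not removed from the counts, and its part in the ratios of cells and clusters was not tested.

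**Figure D5:**
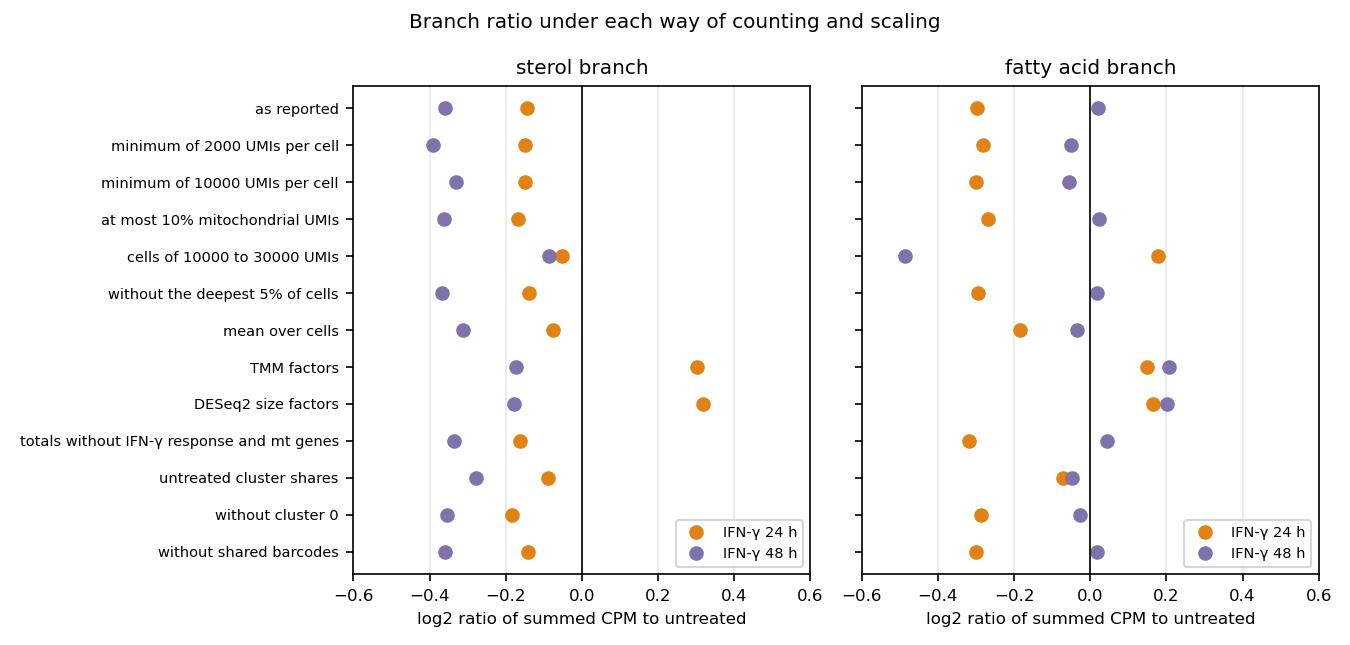
Log2 ratio of the summed branch to untreated (x axis) at 24 h (orange) and 48 h (purple) for the sterol (left) and fatty acid branch (right), as reported and under 12 other ways of selecting cells, counting or scaling (y axis). The sterol branch is below 0 at 48 h in all 13, from -0.39 to -0.09, and above 0 at 24 h only with TMM and DESeq2 factors; the fatty acid branch at 48 h lies between -0.49 and 0.21.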

How the data were processed

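The authors made 3′ v3 libraries (10x Genomics) from sorted live organoid cells, and per the submitters' processing notes mapped the reads with Cell Ranger 6.0.1 to mm10. They deposited a matrix of UMI counts, whole numbers without normalization, per gene and barcode for each of 3 libraries. The annotation release is not given in the sources used here, and positions of genes are those of the GENCODE vM21 annotation (GRCm38). Cells were kept by the study's limits (at least 5000 UMIs and 400 genes, at most 15% mitochondrial UMIs). No doublet caller was run. Counts were summed over cells and divided by the library total (CPM). Log2 ratios have exact conditional binomial 95% intervals for counting error only, and no test was made with 1 library per condition. Intervals of an all-gene calculation were tested on simulated data. A gene counts as past 2-fold at a log2 ratio of 1 or more in size with at least 50 UMIs over the 2 libraries. Clusters were made in Seurat 5.3.0 by CCA over 30 dimensions, 2000 variable genes without any listed pathway gene, 20 principal components and a resolution of 0.5, and were named from marker lists. A random draw thinned each cell to 5000 UMIs for shares of cells. TMM factors came from edgeR 4.0.16 and size factors from DESeq2 1.42.0. Other limits on cells, means over cells, other totals, fixed cluster shares and other resolutions were tried as alternatives. All 29 members are named, with the other pathway genes past 2-fold at either time and at least 50 UMIs, and Scap, Insig2, Nr1h3 and Abca1 whatever their values. Irf1, Cxcl10 and Gbp2 check the treatment, and leading genes describe clusters. Some listed genes are not reported here. The members and lists were chosen with earlier results of these data known.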

Additional observations from a re-analysis of the deposited data

Results flagged for a closer look

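A few results pointed in opposite directions at the 2 times or in a cluster against all cells, with counting intervals on either side of 0. These differences were not tested, since each condition has 1 library. Acaca was at -0.44 at 24 h and 0.31 at 48 h, Fasn at -0.078 and 0.22, Elovl6 at -0.18 and 0.39, and Fads1 at -0.18 and 0.17. The whole fatty acid branch was at -0.30 and 0.020. With TMM scaling all of these values were above 0 at both times. The signs also depended on the cells and weights used. Over the 12 alternatives the 48 h ratios reached down to -0.70 (Acaca), -0.14 (Fasn), -0.24 (Elovl6) and -0.15 (Fads1). On the CPM scale the branch was below untreated at both times as means over cells and with untreated cluster shares. The cause of the opposite signs was not tested.

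In cluster 0 the fatty acid branch was at 0.17 at 24 h and -0.11 at 48 h, against -0.30 and 0.020 over all cells. At 48 h it was also lower in cluster 1 (proliferating-like, -0.058) and in goblet-like cells (-0.13). With TMM these 48 h values were 0.08 in cluster 0, 0.13 in cluster 1 and 0.06 in goblet-like cells. The sterol branch of cluster 0 was at 0.054 at 24 h, against -0.14 over all cells. With TMM the 24 h values of cluster 0 were 0.50 (sterol) and 0.62 (fatty acid). Those over all cells, 0.30 and 0.15, were then also above 0.

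Enteroendocrine-like cells (30, 13 and 21 cells) had the sterol branch at 0.77 at 24 h and 0.42 at 48 h. Their fatty acid branch was at 0.36 at 24 h. Each was opposite to all cells on the CPM scale. With TMM the 24 h values were 1.22 (sterol) and 0.80 (fatty acid), in the same direction as all cells (0.30 and 0.15). At 48 h the sterol value stayed opposite, at 0.61 against -0.17.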

How the results depend on the processing

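No paired analysis was possible because each condition has 1 library, which also leaves no replicate to leave out. Values for the sterol branch at 24 h and 48 h, then the fatty acid branch at 24 h and 48 h, were 0.30, -0.17, 0.15 and 0.21 with TMM and 0.32, -0.18, 0.16 and 0.20 with DESeq2 factors, which by construction add the same shift to every gene. In the same order they were -0.052, -0.086, 0.18 and -0.49 in cells of 10000 to 30000 UMIs (350, 192 and 1164 cells), -0.075, -0.31, -0.18 and -0.034 as means over cells, -0.089, -0.28, -0.071 and -0.048 with untreated cluster shares, and -0.16, -0.34, -0.32 and 0.044 with totals free of IFN-γ response and mitochondrial genes. A minimum of 10000 UMIs per cell gave -0.33 (sterol, 48 h) and -0.056 (fatty acid, 48 h), and a minimum of 2000 gave -0.39 (sterol, 48 h), -0.28 and -0.050 (fatty acid, 24 h and 48 h). At most 10% mitochondrial UMIs gave -0.17 (sterol) and -0.27 (fatty acid) at 24 h. Leaving out cluster 0, an alternative chosen after seeing the data, gave -0.18 (sterol, 24 h) and -0.027 (fatty acid, 48 h). Leaving out shared barcodes, also chosen later, and leaving out the deepest 5% of cells, which bears on doublets, moved neither branch beyond its counting interval. The fatty acid value at 48 h, 0.020, thus had no stable sign; the cause was not tested.

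For sterol members past 2-fold, 0 at 24 h became 1 (Pmvk, higher) with TMM or DESeq2 factors and 2 past 1.5-fold (37.2% of all genes lower and 5.85% higher). The 2 at 48 h became 0 with TMM, DESeq2 factors or cells of 10000 to 30000 UMIs, 1 with a minimum of 10000 UMIs, other totals or untreated cluster shares, and 4 past 1.5-fold (22.7% lower and 8.29% higher). The fatty acid count was 0 under all alternatives run. Shares of all genes were counted only on the CPM scale over all kept cells. Counts under other scalings, weights or cell limits therefore have no matching share, and they do not set the members apart.

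Proliferating-like and colonocyte-like cells with TMM had sterol values of 0.27 and 0.38 at 24 h and -0.16 and -0.061 at 48 h, and fatty acid values of 0.24 and 0.058 at 24 h and 0.21 and 0.18 at 48 h. As means over cells, the sterol value of colonocyte-like cells at 24 h was -0.011, and fatty acid values were -0.24 and -0.029 in proliferating-like cells at 24 h and 48 h and -0.12 in colonocyte-like cells at 24 h. At a resolution of 0.3 the sterol values of colonocyte-like cells were -0.10 and -0.29. That cluster was a larger set, of 233, 158 and 430 cells, against 132, 72 and 181 in cluster 5. Of 28 members, 8 were below untreated and 3 above it at 24 h in all 12 alternatives, and 12 and 2 at 48 h. The same count was not made over all genes. TMM turned the sign of 15 members at 24 h and of 5 at 48 h.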
